A study of Mus musculus with 27 samples.

Results

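Cdh17, Sprr1a, Ly6d, Stc1 and Cd63 are 5 genes that were nearly silent in freshly isolated mouse hepatocytes and much higher in hepatocyte organoids (HepOrgs), three-dimensional cultures grown from those cells. They were chosen by name, out of 21850 rows of the bulk RNA-seq table, because of that difference, so the difference itself is described here with no test. What the choice did not use is how the 5 genes varied between culture media, over time and in co-culture, and those comparisons were tested. The 27 libraries fell into 9 conditions with 3 libraries each. The labels of 26 of them enter a wild-type genotype and the C57BL/6 background, and the third fresh library is titled wild type but entered as MDR2-het, with no background given. Freshly isolated hepatocytes were collected without culture. HepOrgs at passage 2 were kept for 1 week (7 days) or 2 weeks (14 days) in HM-Wnt or in MM. HM-Wnt is an expansion medium with EGF, HGF, FGF7, FGF10, R-spondin, gastrin, nicotinamide, the GSK3 inhibitor CHIR, the TGF-β receptor inhibitor A83-01, a ROCK inhibitor and Wnt-conditioned medium. MM is the minimal medium, which retained of these only the Wnt-conditioned medium and the ROCK inhibitor. Periportal assembloids combined 10 HepOrgs with 1000 cholangiocytes and portal mesenchymal cells in MM for 7 days (1 week) or 18 days (2.5 weeks). The homeostatic ratio used 250 mesenchymal cells and the fibrotic-like ratio 2500. The cholangiocytes carried nuclear tdTomato and the mesenchymal cells H2B-GFP from the Pdgfra locus. The labels number the replicates without naming the animal behind each, so p-values measure the spread between these samples, which may be in part technical.

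The 5 genes share no pathway. Cdh17 encodes liver-intestine cadherin, a cell-cell adhesion protein of intestinal epithelium and of fetal and transformed liver. Sprr1a encodes a small proline-rich precursor of the cornified envelope that transglutaminases crosslink, and it is a familiar marker of stressed and injured cells. Ly6d encodes a GPI-anchored surface protein of the Ly6 family, used as a marker of keratinocytes and of B-cell progenitors. Stc1 encodes stanniocalcin-1, a secreted glycoprotein linked to calcium and phosphate handling and known to respond to hypoxia. Cd63 encodes a tetraspanin of late endosomes, lysosomes and exosomes. Hepatocytes placed in culture are known to lose part of their mature programme and to take up genes of progenitor, biliary and wound-response states.

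On GRCm39 (GENCODE vM39), Cdh17 lies at chr4:11758147-11817895 on the plus strand and Sprr1a at chr3:92390424-92393208 on the minus strand. Ly6d lies at chr15:74633902-74635597 (minus), Stc1 at chr14:69266575-69279253 (plus) and Cd63 at chr10:128731528-128748709 (plus). A non-coding gene on the opposite strand shares 229 exonic bases with Stc1 (Gm41192) and another shares 88 with Cd63 (Gm66801), and the library kit (SMART-seq2 cDNA with Nextera) does not mark strand, so such reads cannot be told apart. Sprr1a has a close paralog, Sprr1b, whose reads the counting may split from it. Cdh17 and Sprr1a were both lower in MM at 2 weeks (below), so the sequence upstream of their annotated start is shown, read from the genome 5′ to 3′ on the strand of the gene and stopped at the first annotated exon. Capitals mark any match, on either strand, to 7 short patterns: AP-1 (TGANTCA), TEAD (GGAATG), TCF/LEF (CTTTGA), CDX (TTTATNG), the hypoxia response element (ACGTG), the GC box (CCGCCC) and the TATA box (TATAAA).
Cdh17, chr4:11757897-11758146: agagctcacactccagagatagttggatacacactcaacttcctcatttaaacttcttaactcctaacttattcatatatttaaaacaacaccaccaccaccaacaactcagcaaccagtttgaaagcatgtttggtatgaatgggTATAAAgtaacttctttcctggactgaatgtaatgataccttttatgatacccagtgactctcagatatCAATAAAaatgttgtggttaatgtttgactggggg
Sprr1a, chr3:92393209-92393458: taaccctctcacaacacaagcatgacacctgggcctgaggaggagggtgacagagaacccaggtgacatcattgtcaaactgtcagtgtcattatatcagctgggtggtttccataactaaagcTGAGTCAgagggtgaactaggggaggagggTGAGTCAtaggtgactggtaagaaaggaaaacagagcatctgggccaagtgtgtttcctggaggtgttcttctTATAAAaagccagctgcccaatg

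The Sprr1a window held 2 AP-1 matches and a TATA box. An AP-1 match was present in 6.18% of 21616 upstream windows of 250 bases of protein-coding genes, and a TATA box in 11.9%. The Cdh17 window held a TATA match and a CDX match, with background shares of 11.9% and 9.54%. Over the full 250-base windows of Cdh17, Sprr1a, Ly6d and Cd63, 2 held a TATA match (Cdh17 and Sprr1a) and 2 a CDX match (Cdh17 and Cd63). An ACGTG and a TCF/LEF match were each present in Cd63 alone (background 17.0% and 14.1%), and neither the TEAD (12.1%) nor the GC box (36.4%) pattern was present in any of the 4. Ly6d held no match to any of the 7 patterns. The shared letters are a description of these windows and not a count of working sites.

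Total counts per library ranged from 30289364 to 65348596, and PCR copies were not marked, so counting intervals and floors cover counting error only. One library stood apart: in homeostatic assembloid 1 week replicate 2, 8465 genes had a count, against 14016 to 16018 in the other 26 libraries, and the assembloid log2 fold changes printed for the 5 genes are given with and without it. All 10 hepatocyte markers were detected in every condition, with summed TPM (length-scaled transcript abundance) of 95522 to 124350 in fresh libraries and 30285 to 88427 in HepOrgs. Endothelial markers summed to 0.626 to 2.87 TPM and cholangiocyte markers to 28.1 to 104 TPM in HepOrgs, against 9.67 to 44.4 and 7.15 to 18.5 TPM in fresh libraries. Mesenchyme markers summed to 45.9 to 207 TPM in HepOrgs and 4.19 to 20.9 TPM in fresh libraries, so every HepOrg library was above every fresh one, as for the cholangiocyte markers. The 5 genes were chosen for such a difference, so no likeness to these markers is read from it. Immune markers summed to 0.235 to 51.0 TPM in HepOrgs, with 1 exception at 992 TPM (MM 2 weeks replicate 3), and to 18.3 to 182 TPM in fresh libraries. The part of these other cell types in the levels of the 5 genes was not tested. In bulk RNA, fewer cells of a type and less RNA per cell cannot be told apart.

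In freshly isolated hepatocytes the 5 genes were at or close to the limit of detection. Cdh17 had 0, 0 and 0 counts in the 3 fresh libraries, and Sprr1a and Stc1 each had 1, 0 and 0. Ly6d had 11, 23 and 13 counts and Cd63 had 39, 86 and 110, so neither was absent.

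**Figure D1:**
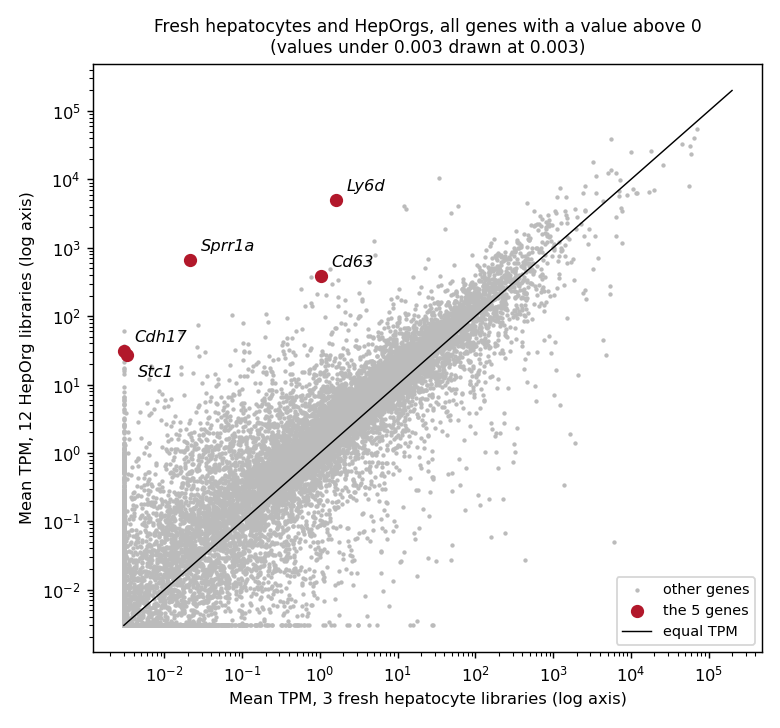
Mean TPM of every gene with a value above 0 in 3 fresh hepatocyte libraries (x axis, log scale) and 12 HepOrg libraries (y axis, log scale); the line marks equal TPM and values under 0.003 are drawn at 0.003. The 5 chosen genes (red) sit in the upper left, with Ly6d highest in HepOrgs and Cdh17 at the left edge because it had no count in any fresh library.

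Against a floor of 3 counts per fresh library, the mean of the 12 HepOrg libraries (TMM-normalised CPM) was at least 2511-fold higher for Cdh17, at least 1724-fold higher for Sprr1a and at least 461-fold higher for Stc1. The ratio to the measured fresh level was 1954 for Ly6d and 237 for Cd63. Without fresh replicate 3 the bounds were 2406, 1651 and 442, and the ratios 1704 and 270. In a fit of the 15 fresh and HepOrg libraries, Cdh17, Sprr1a and Ly6d ranked 1, 2 and 3 of 13405 genes by fitted log2 fold change, Stc1 ranked 11 and Cd63 25. Without fresh replicate 3 the ranks were 1, 2, 3, 13 and 23 of 13642. In that contrast, which chose the 5 genes, 26.9% of all genes were called higher and 28.8% lower in HepOrgs (edgeR's quasi-likelihood test, adjusted p under 0.05), and nothing is read from the members' own calls.

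A TPM value divides by the deposited gene length, which follows the gene span with introns for most genes, so levels were compared between genes per kilobase of exon. On that scale (CPM per kilobase of exon), Ly6d was the most abundant of the 5 in HepOrgs, with condition means of 1145 ± 159 (SD, n = 3) to 1259 ± 137 (SD, n = 3). Cd63 followed at 118 ± 27.6 to 143 ± 19.9. Sprr1a ranged from 28.7 ± 12 in MM at 2 weeks to 232 ± 79.8 in HM-Wnt at 2 weeks, and Cdh17 from 22.8 ± 7.28 to 84.2 ± 29.4 in the same conditions. Stc1 was the least abundant, at 0.757 ± 0.260 in MM at 2 weeks and 19.7 ± 2.20 in HM-Wnt at 1 week.

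**Figure D2:**
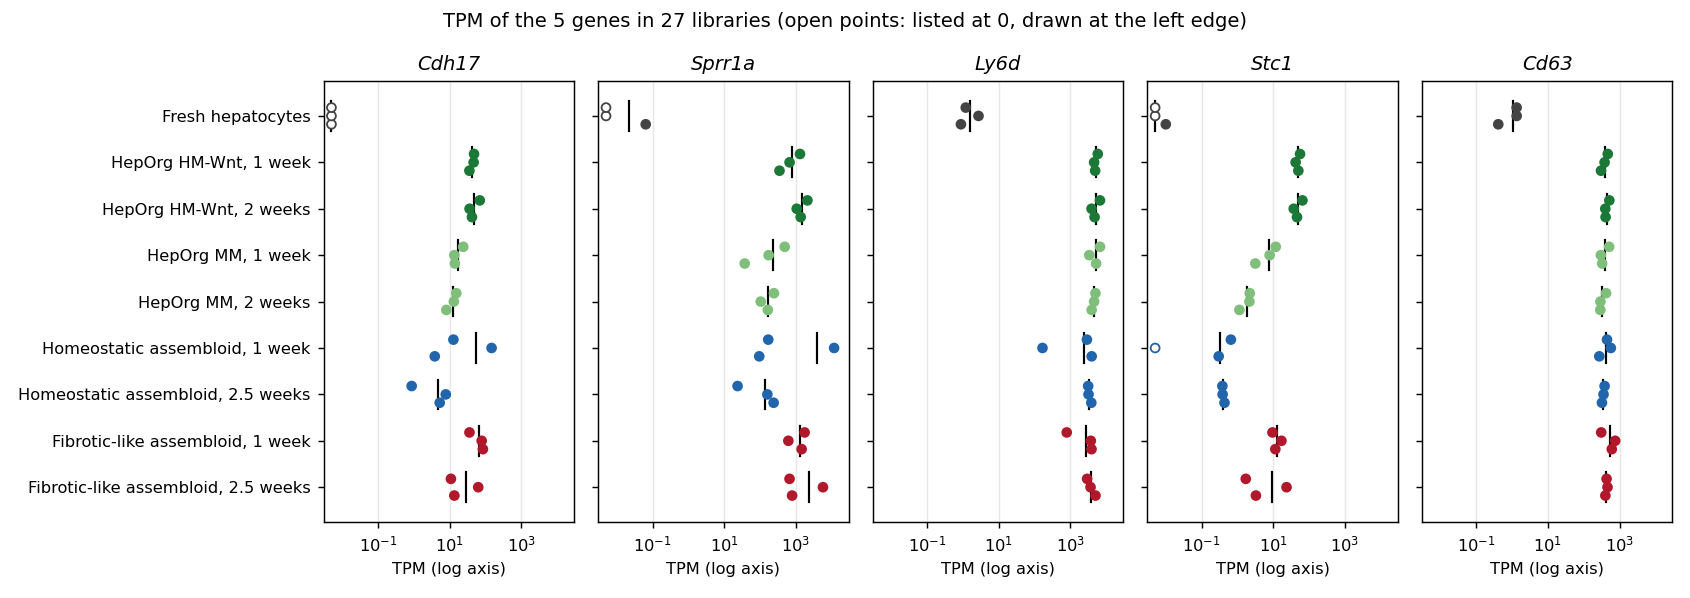
TPM (x axis, log scale) of each gene in the 27 libraries, by condition (rows); points are libraries, black bars the mean of 3, and open points are libraries listed at 0. Ly6d and Cd63 stay within a narrow band in HepOrgs, whereas Stc1, Cdh17 and Sprr1a shift left in MM, and the homeostatic assembloid library that stands apart carries the highest Sprr1a and Cdh17 values.

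As a further description of the contrast that chose the 5 genes, fixed limits were applied to TPM. Of 21848 genes, 22 were under 1 TPM in every fresh library and at 10 TPM or more in every HepOrg library. Sprr1a was the only one of the 5 among them. The 10 with the highest median TPM were compared per kilobase of exon, as median CPM per kilobase over the 12 HepOrg libraries. The highest of these were Phgdh (69.3), the first enzyme of serine synthesis, Sprr1a (65.7) and Cyp1a1 (34.0), the aryl hydrocarbon receptor target. Fbxo2 (24.2), Cdkn2b (21.0), a cell cycle inhibitor, Psrc1 (19.0), Cd24a (18.6), a surface marker of progenitor and biliary cells, and Cxcl14 (18.4) followed. Sfn (14.9), which encodes 14-3-3σ of squamous epithelium, and Cldn4 (8.13), a tight junction claudin, were the lowest. Ly6d and Cd63 missed the limits through fresh values of up to 2.71 and 1.34 TPM, and Cdh17 and Stc1 through MM libraries as low as 8.07 and 1.13 TPM. The TPM limits depend on the deposited length, and the lowest HepOrg level of Cdh17 per kilobase of exon was 14.8.

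The comparison of MM with HM-Wnt asks how withdrawal of the expansion factors and nicotinamide affected HepOrgs of the same passage. Stc1 and Cdh17 were called lower in MM at both times and Sprr1a at 2 weeks, whereas the differences for Ly6d and Cd63 were small. Sprr1a was also lower at 1 week, but passed the threshold only under some settings, among them a block on the replicate number (below). At 1 week, edgeR called 2 of the 5 genes lower and none higher, against 1.22% of 12989 genes called lower, 1.76% higher and 2.98% in either direction. At 2 weeks, 3 of the 5 were called lower and none higher, against 4.61% lower and 6.84% higher (11.5% in either direction). In 1 fit of all 27 libraries, which adds the variable assembloids to the estimate of spread, none of the 5 passed at either time, although the log2 fold changes were close to those of the HepOrg fit given below. They were -2.87 and -4.46 for Stc1 and -1.52 and -1.73 for Cdh17 at 1 and 2 weeks (edgeR adjusted p = 0.853, 0.0801, 1.00 and 0.591), and -2.87 for Sprr1a at 2 weeks (adjusted p = 0.476). Without the library that stands apart that fit, chosen after seeing the data, called Stc1 at 1 week and Stc1 and Sprr1a at 2 weeks. It called 0.524% and 4.68% of all genes at those times. On the log2(TPM + 1) scale the median of all genes was itself shifted by -0.26 at 2 weeks, so ranges of TPM are read beside the TMM-normalised folds.

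Stc1 showed the largest difference. Its TPM in HM-Wnt was 49.8, 41.9 and 55.6 at 1 week and 45.7, 37.1 and 64.9 at 2 weeks. In MM it was 3.14, 7.88 and 11.7 at 1 week and 1.13, 2.14 and 2.19 at 2 weeks. Every MM library was below every HM-Wnt library (TPM ranges were separate and lower in MM for 7.04% of genes at 1 week and 35.7% at 2 weeks, and higher for 13.7% and 9.44%). The log2 fold change of MM over HM-Wnt was -2.86 (SE 0.35, edgeR adjusted p = 0.00556) at 1 week and -4.40 (SE 0.38, adjusted p = 0.000319) at 2 weeks, where Stc1 was the 17th lowest of the genes tested. The decrease in MM from 1 to 2 weeks was -1.84 on the log2 scale (95% interval -2.59 to -1.09) with no overlap between the ranges (11.2% of genes were lower without overlap), but its adjusted p was 0.133. It passed the threshold with DESeq2 (adjusted p = 0.000119) and without MM 1 week replicate 1 (-2.18, adjusted p = 0.0350). The change of the medium effect over time was -1.54 (unadjusted p = 0.00662, edgeR adjusted p = 0.671). Measured against the fresh floor, Stc1 was at least 928-fold higher in HM-Wnt at 1 week and at least 34.9-fold higher in MM at 2 weeks (889.5 and 33.4 without fresh replicate 3).

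Cdh17 fell less. In HM-Wnt its TPM was 35.6, 46.6 and 47.9 at 1 week and 41.9, 36.0 and 69.3 at 2 weeks. In MM it was 14.0, 13.5 and 23.9 at 1 week and 8.07, 13.1 and 15.3 at 2 weeks. No MM library reached the lowest HM-Wnt library of the same week. The log2 fold change was -1.50 (SE 0.27, edgeR adjusted p = 0.0203) at 1 week and -1.67 (SE 0.27, adjusted p = 0.00367) at 2 weeks. The 1 week call was lost when HM-Wnt replicate 2 or 3 or MM replicate 1 or 2 was left out, with log2 fold changes of -1.32, -1.48, -1.45 and -1.38 and edgeR adjusted p of 0.0579, 0.0549, 0.0895 and 0.0823.

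Sprr1a varied most between replicates. Its TPM in HM-Wnt was 349, 668 and 1305 at 1 week and 1364, 1056 and 2101 at 2 weeks. In MM it was 37.3, 174 and 489 at 1 week and 165, 105 and 245 at 2 weeks. The ranges overlapped at 1 week and were separate at 2 weeks. The log2 fold change was -1.97 (SE 0.66, edgeR adjusted p = 0.119) at 1 week and -2.82 (SE 0.69, adjusted p = 0.0241) at 2 weeks. With the replicate number as a block, the 1 week difference passed the threshold (-2.12, edgeR adjusted p = 0.0310), as it did with DESeq2 (adjusted p = 0.0160) and without MM 1 week replicate 3 (-2.86, adjusted p = 0.0426). The 2 week call was lost without HM-Wnt replicate 1 or 3 or MM replicate 1 or 2, with log2 fold changes of -2.85, -2.61, -2.84 and -2.62 and edgeR adjusted p of 0.0588, 0.0683, 0.0860 and 0.10.

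For Ly6d and Cd63 the medium differences were within the spread of the libraries. Ly6d had TPM of 4902, 4590 and 5811 in HM-Wnt and 5217, 3362 and 6723 in MM at 1 week. At 2 weeks it had 4729, 3894 and 6692 in HM-Wnt and 3915, 4589 and 5003 in MM. The ranges overlapped at both times, and the log2 fold changes of -0.12 (95% interval -0.60 to 0.35) and 0.16 (-0.32 to 0.63) did not pass the test (edgeR adjusted p = 0.777 and 0.688). Cd63 had TPM of 304 to 469 in HM-Wnt and 301 to 512 in MM at 1 week, then 399.7 to 519 and 290.4 to 419.7 at 2 weeks. Its log2 fold changes were -0.16 (95% interval -0.59 to 0.28) and -0.09 (-0.52 to 0.34), with edgeR adjusted p of 0.671 and 0.814.

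**Figure D3:**
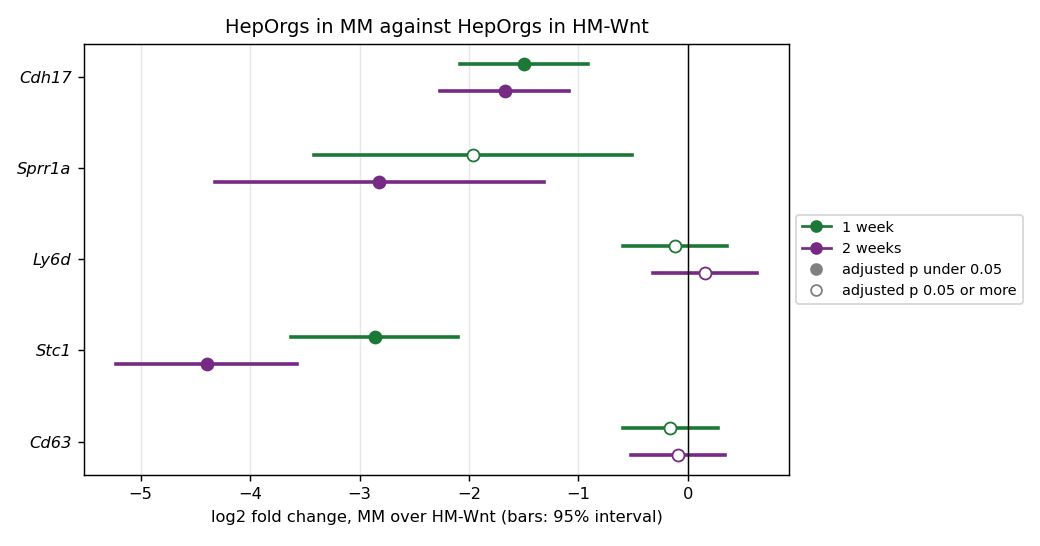
Log2 fold change of MM over HM-Wnt (x axis) for each gene at 1 week (green) and 2 weeks (purple), with 95% intervals from the fit of 12 HepOrg libraries; filled points had an adjusted p under 0.05. Stc1, Cdh17 and Sprr1a lie left of 0 at both times, and the Ly6d and Cd63 intervals span 0.

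The library with the high immune marker sum, MM 2 weeks replicate 3, was also left out. Without it the 2 week log2 fold changes were -4.46 for Stc1, -1.78 for Cdh17 and -3.06 for Sprr1a (edgeR adjusted p = 0.00114, 0.00757 and 0.0388). Over the 12 HepOrg libraries the Spearman correlation of Cdh17 with Stc1 was 0.92, of Cdh17 with Sprr1a 0.81 and of Sprr1a with Stc1 0.80 (TMM log2 CPM). Ly6d had coefficients of 0.10 with Sprr1a, 0.38 with Stc1, 0.52 with Cdh17 and 0.63 with Cd63, and Cd63 had 0.49 with Stc1, 0.57 with Sprr1a and 0.61 with Cdh17. These coefficients describe libraries that share 2 media and 2 times.

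Time alone left no member past the threshold. Between 1 and 2 weeks, edgeR called 0 of 12989 genes in HM-Wnt (1134 at an unadjusted p under 0.05, 13 with DESeq2) and 2 in MM (0.0154%; 308 with DESeq2). Of the members, only Stc1 in MM had an unadjusted p under 0.05. The medium by time term was called for 0 genes (951 at an unadjusted p under 0.05, 43 with DESeq2).

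The relatives of each gene were measured beside it. Among cadherins, Cdh1 (E-cadherin) was at 11.3 to 38.6 TPM in HepOrgs against 2.18 to 8.30 in fresh libraries and was called higher (log2 fold change 1.43, edgeR adjusted p = 0.00337), and Cdh2 (N-cadherin) was called lower (-0.72, adjusted p = 0.00499). Of the 10 other cadherins tested against fresh hepatocytes, 3 were called higher and 5 lower (median 0.07, all genes 0.01, with 55.6% of all genes called). Over all genes 26.9% were called higher and 28.8% lower, the reference for each list below. Between media, 1 of 8 was called at 1 week and 2 at 2 weeks, all higher in MM, with log2 fold changes of 3.02 at 1 week and 3.42 at 2 weeks for Cdh18 and 2.69 at 2 weeks for Cdh3 (edgeR adjusted p = 0.0410, 0.0116 and 0.00314). Cdh18 and Cdh3 were at low levels, with median HepOrg TPM of 0.00505 and 0.248.

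Cdh17 is a classic target of the intestinal factors CDX1 and CDX2 and was checked beside an intestinal list. Cdx1 was listed at 0 in all HepOrg libraries, and Cdx2 was at 0 to 0.114 TPM. In assembloids Cdx1 had at most 1 count in a library and Cdx2 at most 1 count in homeostatic ones, but Cdx2 reached 5.62 TPM (157 counts) in fibrotic-like assembloids at 1 week and 2.49 TPM (66 counts) at 2.5 weeks, with medians of 0.128 and 0.0379 TPM. Of 15 other intestinal genes tested, 8 were called higher and 2 lower than in fresh hepatocytes (median 2.04), led by Cldn7 (5.77) and Krt20 (3.79), while Fabp2, an intestinal fatty acid carrier, was lower (-5.88). Between media, 1 was called higher and 1 lower at 1 week (median 0.48) and 4 higher and 1 lower at 2 weeks (median -0.23). Fabp2 (5.12) and Guca2a (4.05) were higher in MM at 2 weeks, against the direction of Cdh17, and Apoa4 (1.37) was higher at 1 week, whereas Mep1b was lower at both times (-3.48 and -2.98). Median HepOrg TPM was low for Fabp2 (0.699), Guca2a (1.59), Mep1b (0.0506) and Krt20 (0.447). It was 34.1 for Cldn7 and 4571 for Apoa4.

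Sprr1a was measured beside other cornified envelope genes. Sprr1b did not exceed 2.11 TPM in any HepOrg library, and Ivl (involucrin, the envelope scaffold) did not exceed 5.90. Tgm1, the keratinocyte transglutaminase, was at 5.70 to 34.8 TPM and was lower in MM at 2 weeks (log2 fold change -1.32, edgeR adjusted p = 0.0333), the same direction as Sprr1a. Of the 11 other genes tested from a list of 30, 6 were called higher and none lower than in fresh hepatocytes (median 2.34), led by Sfn (7.63) and Krt5 (3.77). Between media 0 were called at 1 week (2 at an unadjusted p under 0.05, edgeR; median 0.71), and Tgm1 alone at 2 weeks (median -0.70).

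Among Ly6/uPAR genes, Ly6e was the other abundant one, at 2517 to 4600 TPM in HepOrgs and 443 to 724 in fresh libraries (log2 fold change 1.95, edgeR adjusted p = 3.94e-06). Ly6a (Sca-1) was at 17.5 to 145 TPM in HepOrgs and 3.28 to 13.7 in fresh libraries. Of 17 other family members tested, 11 were called higher and 4 lower (median 1.95), with Ly6m (7.74) and Lynx1 (6.04) highest and the endothelial Gpihbp1 (-7.72) and Cd59a (-1.33) lowest. Between media 0 of 16 were called at 1 week (2 at an unadjusted p under 0.05, edgeR; median -0.27). At 2 weeks Ly6f alone was called (-3.23, edgeR adjusted p = 0.00310; median -0.48).

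Stc1 was measured beside other hypoxia response genes, several of which were also lower in MM at 2 weeks. Stc2, its paralog, was at 0 TPM in every fresh library and 0.405 to 6.47 in HepOrgs, and its medium difference at 2 weeks was -1.98 (edgeR adjusted p = 0.0636). Of 21 other hypoxia response genes tested, 18 were called higher and none lower than in fresh hepatocytes (median 1.94), with Stc2 (6.20) and the hexokinase Hk2 (4.81) highest. In MM at 2 weeks, 7 of the 21 were called lower and none higher, against 4.61% of all genes (median -1.11, all genes -0.02). Adm, which encodes adrenomedullin, was at -3.39, the oxidoreductase Ero1a at -2.09 and Vegfa, the endothelial growth factor, at -1.15 (edgeR adjusted p = 0.00678, 0.0325 and 0.0304). At 1 week 0 of 21 were called (4 at an unadjusted p under 0.05, edgeR), the median was 0.11, and Stc1 was already lower. From 1 to 2 weeks in MM 0 of 21 were called, and the median was -0.92. For medium by time 0 were called, and the median was -1.33. In each of these 2 contrasts 12 of the 21 had an unadjusted p under 0.05 (edgeR), against 10.3% and 7.32% of all genes.

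Cd63 was measured beside tetraspanins and the lysosomal compartment. Cd81, another exosome tetraspanin, was at 215 to 237 TPM in fresh libraries and 497 to 875 in HepOrgs (log2 fold change 0.88, edgeR adjusted p = 0.00120), and Cd9 at 4.32 to 7.86 and 38.6 to 104 (called higher, adjusted p = 7.79e-07). Of 24 other tetraspanins tested, 10 were called higher and 4 lower (median 0.68), against 26.9% and 28.8% of all genes. Tspan13 (6.09) and Tspan8 (5.93) were highest and Tspan18 (-3.62) and Tspan12 (-1.26) lowest. Tspan18 was at low levels, with a mean of 0.0951 TPM in fresh libraries and a median of 0.00876 in HepOrgs. In MM, 3 of 24 were called lower and none higher at each time (median -0.16 and -0.35), including Tspan2 (-2.88 and -4.08), Tspan33 at 1 week (-1.63) and Tspan13 at 2 weeks (-1.95). Itgb1, the integrin partner of CD63, did not pass the test against fresh hepatocytes (0.21, edgeR adjusted p = 0.432). Timp1, the ligand of CD63, was listed at 0 in all 27 libraries. From its single-cell data the paper predicts a Timp1 to Cd63 interaction among the mesenchymal cells of fibrotic-like assembloids. The 0 in the bulk counts is therefore not read as absence, and its cause was not tested.

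Of 23 other late endosome and lysosome genes, 10 were called higher and 4 lower than in fresh hepatocytes (median 0.26), against 26.9% and 28.8% of all genes. The highest were Hexa (2.48) and Cd68 (2.32), and the lowest were Npc1, a cholesterol exporter (-1.40), and the protease Ctsc (-1.13). Between media 0 were called at 1 week (2 at an unadjusted p under 0.05, edgeR; median 0.03), and 1 higher (Gusb, 0.86) and 3 lower, among them Neu1 (-0.98) and Npc2 (-0.75), at 2 weeks (median -0.14).

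The comparisons with fresh hepatocytes were repeated without fresh replicate 3, a choice made after seeing the data, where 46.8% of all genes were called. The filter on low counts was applied anew, so some lists hold more tested genes. The relatives named above kept their side of the threshold. The calls higher and lower were 3 and 4 of 10 cadherins, 7 and 2 of 15 intestinal genes, 4 and 0 of 14 cornified envelope genes and 9 and 4 of 18 Ly6/uPAR genes. They were 17 and 0 of 21 hypoxia response genes, 10 and 3 of 24 tetraspanins and 9 and 4 of 23 lysosomal genes, whose median was 0.14.

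In assembloids all 5 genes remained detected in at least 11 of 12 libraries. No assembloid was compared by test with fresh hepatocytes or with HepOrgs, and TPM values are given side by side. Both assembloid ratios were grown in MM, so MM HepOrgs are the nearest reference. Stc1 in homeostatic assembloids was 0.298, 0 and 0.652 TPM at 1 week and 0.432, 0.383 and 0.377 at 2.5 weeks. MM HepOrg libraries were at 1.13 TPM or more. The share of all genes that separate these conditions was not counted, so nothing is read from that gap. The homeostatic values rest on 26, 0 and 61 counts and on 44, 36 and 28 counts, and the 0 is the library that stands apart. In fibrotic-like assembloids Stc1 was 11.4, 16.8 and 9.45 TPM at 1 week and 3.26, 23.3 and 1.70 at 2.5 weeks. Every fibrotic-like library was above every homeostatic one of the same time, as for 39.1% of genes at 1 week.

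The ratio comparison asks what the larger mesenchymal input changed. With all 12 assembloid libraries, edgeR called 0 of 14253 genes at 1 week (2012, or 14.1%, at an unadjusted p under 0.05; 867 with DESeq2) and 0 at 2.5 weeks (944, or 6.62%, and 273). The log2 fold change of fibrotic-like over homeostatic for Stc1 was 4.36 (95% interval 1.24 to 7.47, edgeR adjusted p = 0.288) at 1 week and 3.57 (0.56 to 6.58, adjusted p = 0.742) at 2.5 weeks. Stc1 passed the threshold at 1 week with DESeq2 (4.42, adjusted p = 0.00530). It also passed without homeostatic 1 week replicate 2 (3.79, edgeR adjusted p = 0.0442), where 8.01% of 14746 genes were called. At 2.5 weeks it did not pass in that fit (3.57, edgeR adjusted p = 0.0559, 0.258% of genes called).

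Sprr1a and Cdh17 depended on the library that stands apart at 1 week. That library had 11680 TPM of Sprr1a (107131 counts) and 148 of Cdh17, and the other homeostatic libraries had 95 and 169 TPM of Sprr1a and 3.84 and 12.7 of Cdh17. Fibrotic-like libraries at 1 week had 1449, 617 and 1756 TPM of Sprr1a and 84.7, 78.3 and 35.7 of Cdh17. The log2 fold change was -1.94 for Sprr1a and 0.07 for Cdh17 with all libraries, and 2.25 and 2.23 without that library (edgeR adjusted p = 0.581, 0.983, 0.127 and 0.122). At 2.5 weeks Sprr1a had 239.6, 159.8 and 23.6 TPM in homeostatic and 785, 5711 and 666 in fibrotic-like assembloids, and Cdh17 had 5.28, 7.78 and 0.869 against 13.5, 62.7 and 10.8. Neither pair of ranges overlapped. The log2 fold changes were 3.22 (95% interval -0.04 to 6.49, edgeR adjusted p = 0.756) and 1.85 (-0.54 to 4.24, adjusted p = 0.856). In the fit without the library that stands apart they were 3.22 and 1.85 (edgeR adjusted p = 0.0905 and 0.210).

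Counted by TPM ranges that do not overlap, 4 of the 5 genes were higher in fibrotic-like assembloids at 2.5 weeks, all but Ly6d, against 40% of 14255 features, the reporter transcripts included. For Cd63 the direction depended on the scale: its TPM was 322 to 383 in homeostatic and 401 to 461 in fibrotic-like libraries, but the TMM-normalised log2 fold change was -0.28 (95% interval -1.21 to 0.66), and -0.28 without the library that stands apart (edgeR adjusted p = 0.714). Ly6d overlapped at both times, with log2 fold changes of -0.68 (95% interval -2.96 to 1.59) and -0.33 (-2.60 to 1.94), which were -1.25 and -0.33 without that library (edgeR adjusted p = 0.232 and 0.777). Its lowest values were 166 TPM in homeostatic 1 week replicate 2 and 788 in fibrotic-like 1 week replicate 3, and the other 10 assembloid libraries were at 2885 to 5010.

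**Figure D4:**
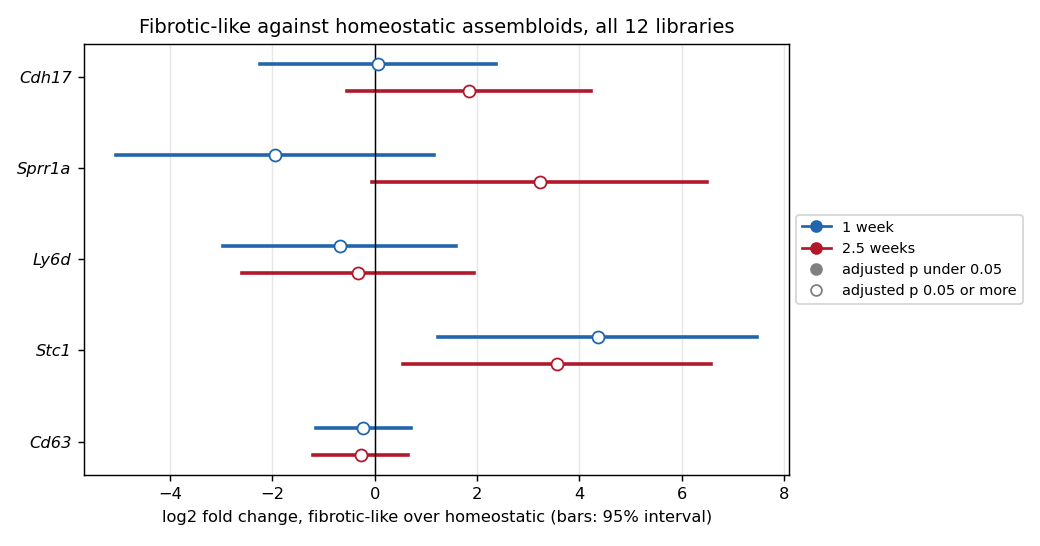
Log2 fold change of fibrotic-like over homeostatic assembloids (x axis) for each gene at 1 week (blue) and 2.5 weeks (red), with 95% intervals from the fit of all 12 assembloid libraries; all points are open because no adjusted p was under 0.05. The Stc1 intervals lie right of 0 at both times and the others span it, Sprr1a at 2.5 weeks only just.

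Markers of the added cell types differed between the same libraries. Mesenchyme markers summed to 525 to 2929 TPM in fibrotic-like libraries and 56.6 to 4562 in homeostatic ones, and to 56.6 to 306 at 1 week without the library that stands apart. Cholangiocyte markers summed to 31.1, 4338 and 275 TPM in homeostatic and 853, 296 and 4928 in fibrotic-like libraries at 1 week, and to 122, 81.9 and 65.1 against 390.1, 4121 and 437 at 2.5 weeks. The library with the highest Sprr1a, Cdh17 and Stc1 at 2.5 weeks was the one with 4121. The reporter transcripts of the added cells were read beside these sums. The tdTomato of the cholangiocytes was at 0.817, 31.8 and 532 TPM in homeostatic and 94.2, 11.7 and 71.5 in fibrotic-like libraries at 1 week, and at 6.70, 4.39 and 237 against 24.7, 244 and 375 at 2.5 weeks. The library that stands apart, with a cholangiocyte marker sum of 4338, had 31.8 TPM of tdTomato, and the homeostatic library with 532 had a sum of 275. The eGFP row was at 4.59, 139 and 999 TPM in homeostatic and 270.0, 940.0 and 13113 in fibrotic-like libraries at 1 week, and at 4.11, 6.13 and 201 against 120.2, 663 and 1855 at 2.5 weeks, and for both reporters the ranges of homeostatic and fibrotic-like libraries overlapped at both times. Over the 12 assembloid libraries the Spearman correlation of TPM with the cholangiocyte marker sum was 0.96 for Sprr1a, 0.82 for Cdh17 and 0.49 for Stc1 (0.96, 0.80 and 0.86 over 11 without the library that stands apart). With the mesenchyme marker sum it was 0.85, 0.89 and 0.49 (0.80, 0.85 and 0.94 over 11). For Ly6d the coefficients were -0.41 with both lists (-0.24 and -0.23 over 11). For Cd63 they were 0.43 and 0.69 (0.41 and 0.65 over 11). With the hepatocyte marker sum, Cdh17, Sprr1a, Stc1, Cd63 and Ly6d had -0.78, -0.74, -0.34, -0.56 and 0.62 (-0.71, -0.66, -0.74, -0.50 and 0.50 over 11). With the endothelial marker sum they had 0.87, 0.78, 0.46, 0.83 and -0.29 in that order (0.83, 0.71, 0.90, 0.82 and -0.08 over 11). Immune markers summed to 0.0442 to 1.01 TPM (0.747 to 1.01 without the library that stands apart) in homeostatic and 2.52 to 24.5 TPM in fibrotic-like libraries, with a coefficient of 0.92 for Stc1 (0.90 over 11). The libraries share their mixture, so these are descriptions, and the part of the added cells in the differences was not tested.

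**Figure D5:**
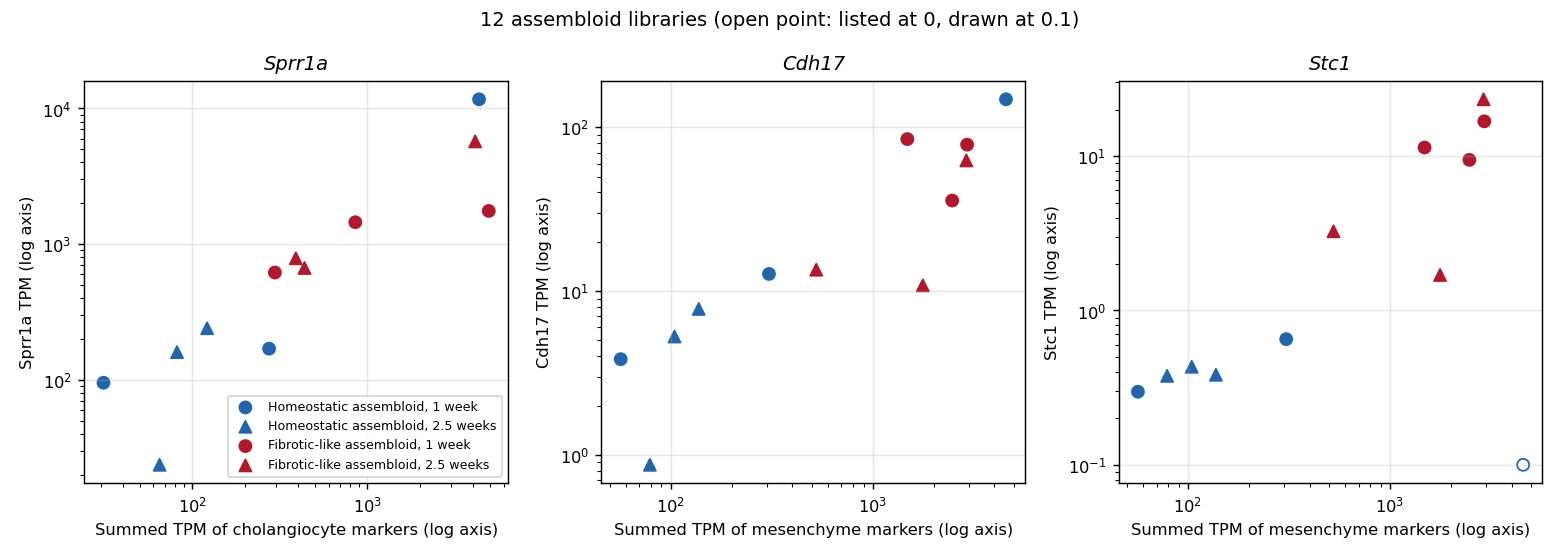
TPM of Sprr1a, Cdh17 and Stc1 (y axes, log scale) against the summed TPM of cholangiocyte or mesenchyme markers (x axes, log scale) in 12 assembloid libraries; circles are 1 week and triangles 2.5 weeks, blue homeostatic and red fibrotic-like. The other 5 homeostatic libraries lie left of every fibrotic-like library and below them in Sprr1a and Stc1, with an overlap in Cdh17; the homeostatic library that stands apart lies among the highest marker sums, with the highest Sprr1a and Cdh17 and with Stc1 at 0.

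In HepOrgs, where no cholangiocyte was added, the same correlations with the cholangiocyte marker sum were 0.12 for Sprr1a, -0.08 for Cdh17 and -0.15 for Stc1 over 12 libraries. With the hepatocyte marker sum, Cdh17, Sprr1a, Stc1, Cd63 and Ly6d had -0.38, -0.47, -0.20, -0.75 and -0.57 there. The sign for Ly6d was thus opposite to that in assembloids. The cholangiocyte marker sum covered only 28.1 to 104 TPM in HepOrgs, and Sprr1a reached 2101 TPM. These coefficients are descriptions over 2 media, and the source of the transcripts was not tested. The paper reports that stray cholangiocyte organoids or mesenchyme at times appeared in HepOrg cultures and were picked out by hand. HepOrg libraries are therefore not read as free of these cells, and the part of any that remained was not tested. Fibrotic-like and homeostatic assembloids differed in the medians of the marker lists, without a call: over 14253 genes the median log2 fold change was 0.20 at 1 week and 0.03 at 2.5 weeks. It was -1.50 and -0.82 over hepatocyte markers, 2.90 and 3.83 over mesenchyme markers, -0.10 and 3.52 over cholangiocyte markers, 0.47 and 0.35 over 4 endothelial markers and 2.31 and 2.02 over 2 immune markers. Without the library that stands apart the 1 week medians were -2.07, 3.01, 2.61, 1.74 and 0.17 (over 3 immune markers) in the same order, with 1 cholangiocyte and 1 mesenchyme marker called higher, and 0.16 over all genes. At 2.5 weeks they were -0.82, 3.83, 3.52, 0.34 and 2.39 with none called, and 0.04 over all genes. Ivl, near 0 in HepOrgs, was at 7.75 to 288 TPM in fibrotic-like libraries at 1 week (log2 fold change 7.24, edgeR adjusted p = 0.274, and 6.94 with 0.0764 without that library).

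Over time in assembloids, 0 of 14253 genes were called by edgeR in either ratio (936 at an unadjusted p under 0.05 and 12 with DESeq2 in homeostatic, 122 and 0 in fibrotic-like). Sprr1a and Cdh17 had log2 differences of -4.03 and -2.83 from 1 to 2.5 weeks in homeostatic assembloids (edgeR adjusted p = 0.759 for both), which became 0.16 and -0.67 without replicate 2 at 1 week. The ratio by time term was called for 0 genes (278 at an unadjusted p under 0.05, 0 with DESeq2), and for Sprr1a it was 5.16 with all libraries and 0.97 without that one (edgeR adjusted p = 1.00 and 0.925).

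Ordered by mean TPM over the 9 conditions, Stc1 was highest in HM-Wnt at 2 and 1 weeks (49.2 ± 14.2 and 49.1 ± 6.88, SD, n = 3), whose ranges overlapped. It then dropped, with no overlap, to fibrotic-like assembloids at 1 and 2.5 weeks (12.5 ± 3.81 and 9.43 ± 12.1) and MM HepOrgs at 1 week (7.56 ± 4.27), which overlapped in turn. MM at 2 weeks (1.82 ± 0.601) overlapped neither neighbour in this order, and the homeostatic assembloids and fresh hepatocytes came last. For Cdh17 the first 7 conditions, from fibrotic-like 1 week (66.2 ± 26.6) to MM 2 weeks (12.2 ± 3.71), each overlapped the next, and homeostatic 2.5 weeks (4.64 ± 3.50) lay below. For Sprr1a, Ly6d and Cd63 each of the 8 cultured conditions overlapped the next in order. Fresh hepatocytes alone were separate, which is the difference by which the genes were chosen. The share of all genes separate between neighbours in such an order was not counted, so these gaps are a description only. Without the library that stands apart, homeostatic assembloids at 1 week moved from place 2 to 7 for Cdh17 (mean 54.9 to 8.28 TPM) and from place 1 to 8 for Sprr1a (3981 to 132 TPM). Cdh17 then overlapped from each cultured condition to the next.

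By likeness over the 24 cultured libraries (Spearman correlation of TMM log2 CPM among 8360 genes), the 3 nearest genes of each were taken. Stc1 was most like Phlda1 (0.94), Tspan2 (0.93) and Amd1 (0.92). Cdh17 was most like Cyp4f16 (0.91), Tmem159 (0.90) and Tmsb10 (0.90), the last a small actin-binding protein. Sprr1a was most like Sema3f (0.87), Impdh2 (0.87) and Hnrnpa1 (0.86). Ly6d was most like Arcn1, Aurkaip1 and C1s1 (0.85 each), although in HepOrgs alone these were 0.34, 0.56 and 0.53. Cd63 had the weakest neighbours, Lgmn (0.73), a lysosomal legumain, Pja2 (0.71) and Ctsb (0.68), a lysosomal cathepsin. The coefficients are over libraries that share conditions, and the neighbours depended on the measure. Without the library that stands apart 1 of the 3 remained for Cdh17, 2 each for Sprr1a, Stc1 and Cd63 and 3 for Ly6d. By Pearson correlation of log2(TPM + 1) 0 of 3 remained for Cdh17, Sprr1a and Ly6d and 1 each for Stc1 and Cd63, and Ly6d with Arcn1 was -0.15.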

How the data were processed

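Bulk RNA was amplified with SMART-seq2 and made into libraries with Nextera. The submitters' processing notes name STAR and GRCm39. The authors deposited raw counts per gene and TPM values, which were used as given. The deposited gene length was within 5% of the gene span, introns included, for 80.8% of 21705 genes matched to the annotation, so levels between genes were recomputed per kilobase of exon. The table also held 10 columns of libraries that were not used here, and 2 reporter rows (eGFP, tdTomato) were kept out of gene counts.

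Library totals were 30289364 to 65348596 counts. Genes were filtered with filterByExpr, normalised with TMM and tested with edgeR's quasi-likelihood test (edgeR 4.0.16, R 4.3.3), with Benjamini-Hochberg adjustment over all genes tested and a threshold of 0.05. HepOrg contrasts were fitted on 12 libraries and assembloid contrasts on 12. DESeq2 1.42.0 and limma 3.58.1 on log2(TPM + 1) were alternatives, with RLE factors, other count filters, a replicate block, all 27 libraries and leaving out single libraries. The lists were also counted without fresh replicate 3 and without homeostatic 1 week replicate 2. The pipeline was tested on simulated data. Descriptions and figures used Python 3.11.15, pandas 2.3.3, numpy 2.4.6, pysam 0.24.0 and matplotlib 3.10.9. Folds against fresh hepatocytes used a floor of 3 counts per library.

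In HepOrgs, libraries with the same replicate number deviated together in 18 of 18 pairs (correlation 0.127 to 0.503, median 0.207), so the blocked value is given where it changed a call. The 5 genes, the gene lists and the tests were chosen with earlier results of these data known. Named genes were the 5 members, the 3 genes most correlated with each, the 10 most abundant genes switched on by the TPM limits, up to 2 highest and 2 lowest called genes of each list, and fixed relatives or partners of each member; 1 partner and 1 upstream sequence are not reported here.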

Additional observations from a re-analysis of the deposited data

How the results depend on the processing

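Of 765 values for single genes under an alternative, 677 kept their direction and side of the threshold, 15 lost the call, 12 gained one and 61 changed sign. The cause was not tested. The number of the 5 genes past the threshold for MM against HM-Wnt was 0 at 1 week and 0 at 2 weeks in 1 fit of all 27 libraries, and 1 at 1 week in the fit of 26 libraries (without homeostatic 1 week replicate 2, chosen after seeing the data). That fit of 26 libraries called 0.524% of all genes at 1 week. Leaving out 1 library gave 1 to 3 at 1 week, where 0.317% to 4.53% of all genes were called. For time in MM it was 1 with DESeq2 (2.37% of all genes) and 0 to 1 leaving out 1 library (0 to 0.083%). For fibrotic-like against homeostatic at 1 week it was 1 with 27 libraries and 1 with DESeq2, where 6.21% and 6.08% of all genes were called. It was 0 to 1 leaving out 1 library (0 to 8.01% of all genes) and 2 with 26 libraries (23.5% of 15083 genes). At 2.5 weeks it was 2 with 26 libraries (7.06% of all genes). Over all genes, MM against HM-Wnt at 1 week had 387 calls, 0 with 27 libraries, 1420 with DESeq2 and 1232 with the replicate block. At 2 weeks it had 1488, 7 with 27 libraries, 2494 with DESeq2 and 2544 with the block. A minimum of 10 counts in every library left Stc1 out of the assembloid fits.

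With the replicate block, the 1 week Sprr1a medium difference was -2.12 and passed. The block changed no other call of the 5 genes, turned Sprr1a over time in MM to 0.13 and turned Ly6d in the ratio by time term to -0.073. In assembloids 6 of 18 same-number pairs correlated above 0.1 (-0.275 to 0.271, median 0.0394). Of pairs with different numbers, 5 of 36 did (-0.333 to 0.298, median -0.0263). Whether assembloids with the same number share an origin cannot be told from these values.

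Leaving out 1 library moved these values across 0. For MM against HM-Wnt at 1 week Ly6d ran from -0.25 to 0.088. For time in HM-Wnt Cdh17 ran from -0.39 to 0.024 and Cd63 from -0.27 to 0.0071. For time in MM Sprr1a ran from -0.70 to 0.69, Ly6d from -0.24 to 0.092 and Cd63 from -0.15 to 0.066. For medium by time Cdh17 ran from -0.37 to 0.047, Sprr1a from -1.37 to 0.043 and Cd63 from -0.060 to 0.22. For fibrotic-like against homeostatic at 1 week Cdh17 ran from -0.41 to 2.23, Sprr1a from -2.45 to 2.25, Ly6d from -1.25 to 0.37 and Cd63 from -0.59 to 0.16. For time in homeostatic assembloids Sprr1a ran from -4.59 to 0.16, Ly6d from -0.031 to 1.6 and Stc1 from -0.11 to 1.09. For time in fibrotic-like assembloids Stc1 ran from -1.62 to 0.12 and Cd63 from -0.31 to 0.44. For ratio by time Cdh17 ran from -0.38 to 2.34, Ly6d from -0.71 to 0.92 and Cd63 from -0.44 to 0.31.

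On log2(TPM + 1) with limma, Ly6d was -0.15 for MM against HM-Wnt at 2 weeks and -0.10 for medium by time, where Cd63 was -0.38. Cdh17 and Cd63 were 0.13 and 0.21 for time in HM-Wnt, and Sprr1a was 0.13 for time in MM. Sprr1a, Ly6d and Cd63 were 1.01, 0.86 and 0.34 for the ratio at 1 week, and Ly6d and Cd63 were 0.16 and 0.29 at 2.5 weeks. Cd63 was -0.22 over time in homeostatic and -0.27 in fibrotic-like assembloids, and Ly6d was -0.71 for ratio by time. With 26 libraries, Sprr1a was 2.26 for the ratio at 1 week, Sprr1a, Ly6d and Stc1 were 0.16, -0.037 and -0.11 over time in homeostatic assembloids, and Cdh17 was -0.36 for ratio by time.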
